A study of Mus musculus with 2 samples.

Results

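Ly49 and Helios positive T cells were followed among CD45-positive leukocytes of B16-F10 melanoma tumors of mice given DOPAC or vehicle. A barcode was a member when it had at least 1 UMI (1 counted RNA molecule) of the T-cell receptor signalling genes Cd3d, Cd3e or Cd3g, at least 1 UMI of the Ly49 receptor genes Klra1 or Klra6, and at least 1 UMI of Ikzf2, which encodes the transcription factor Helios. It also had to have no UMI of Foxp3, Cd4, Ncr1, Cd79a, C1qa, C1qb or Csf1r. Cells were barcodes of 500 UMIs or more and 200 genes or more whose mitochondrial UMIs did not exceed 10%, and 272 of 18539 cells were members. They were 154 of 10095 cells in the DOPAC library and 118 of 8444 cells in the Control library. Members were thus chosen by measured RNA counts, so the levels of the genes in the rule are given as a description only.

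The DOPAC group consisted of wild-type (WT) mice bearing B16-F10 tumors and treated with dihydroxyphenylacetic acid (DOPAC), which cells form when they break down dopamine. The Control group consisted of WT mice with the same tumors and given vehicle. B16-F10 is a transplantable mouse melanoma line, and dose, timing and age of the mice were not given in the sources used here. The titles and sources of both samples name the tumor, whereas their extraction protocol speaks of colon, and the values are described here as tumor on the ground of the titles. The design text states 4 mice per group, and each group was deposited as 1 library in which cells carry no mouse label. No test between the groups was therefore possible, and differences below describe 2 libraries.

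Ly49 receptors are lectin-like receptors of mouse natural killer (NK) cells and of some T cells. Most, such as Ly49A from Klra1, Ly49F from Klra6 and Ly49G from Klra7, carry an inhibitory motif and dampen the cell when they bind MHC class I, whereas Ly49D from Klra4 and Ly49H from Klra8 are activating. Each cell switches on its own combination from the gene cluster, and the transcription factor TCF-1, from Tcf7, is known in mice to be needed for Ly49A. Helios marks many Foxp3-positive regulatory T cells, and it is also found in Ly49-positive CD8 T cells described as regulatory and in innate-like T cells that matured on self antigen in the thymus.

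In the GENCODE annotation of GRCm38 the Ly49 genes of the members lay on the minus strand of chromosome 6, Klra6 at chr6:130013033-130026954, Klra7 at chr6:130218605-130233322 and Klra1 at chr6:130363917-130386874. Ikzf2 lay on the minus strand at chr1:69531214-69687245. The windows around the starts of these 3 Ly49 genes, 250 bases before to 50 after, are shown because the 3 genes were the Ly49 genes of highest counts in members and because Tcf7 and Lef1, which encode the factors that bind CTTTGA and CTTTGT, were measured in them. Sequences are from RefSeq GRCm38.p6, 5′ to 3′ along the minus strand, and capitals mark CTTTGA or CTTTGT.
Klra1, chr6:130386825-130387124: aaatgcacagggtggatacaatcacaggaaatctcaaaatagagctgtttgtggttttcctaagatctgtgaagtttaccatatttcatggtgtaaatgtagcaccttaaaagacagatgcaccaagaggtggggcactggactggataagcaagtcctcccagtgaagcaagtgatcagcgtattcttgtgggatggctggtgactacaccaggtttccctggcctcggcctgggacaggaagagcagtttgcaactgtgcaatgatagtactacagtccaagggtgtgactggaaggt
Klra6, chr6:130026905-130027204: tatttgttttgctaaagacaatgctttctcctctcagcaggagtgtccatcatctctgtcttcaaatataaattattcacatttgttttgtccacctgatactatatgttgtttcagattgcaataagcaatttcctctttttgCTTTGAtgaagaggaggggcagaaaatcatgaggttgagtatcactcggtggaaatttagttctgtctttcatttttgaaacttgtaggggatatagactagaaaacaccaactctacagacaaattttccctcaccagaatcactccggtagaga
Klra7, chr6:130233273-130233572: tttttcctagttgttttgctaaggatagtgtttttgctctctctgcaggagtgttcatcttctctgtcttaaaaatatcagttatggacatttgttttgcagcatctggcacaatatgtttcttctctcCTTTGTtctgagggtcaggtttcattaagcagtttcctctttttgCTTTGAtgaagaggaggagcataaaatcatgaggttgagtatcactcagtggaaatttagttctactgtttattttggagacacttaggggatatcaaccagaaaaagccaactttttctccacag
The Klra7 window held 2 matches and the Klra6 window 1. The Klra1 window held 0, which says only that these letters are not in this window. A second RefSeq start of Klra7, at chr6:130231638-130231937, held 1 match on the other strand. Of 32851 mouse promoter windows of 300 bases, 31.2% held either motif on either strand, so a match is common and describes letters, not binding.

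Counts behind the rule were low. Klra1 and Klra6 together had exactly 1 UMI in 107 members (69.5%) of the DOPAC library and in 47 members (39.8%) of the Control library. The highest member had 7 UMIs in the DOPAC library and 11 in the Control library. Ikzf2 was better covered, with a median of 8 UMIs in DOPAC members (range 1 to 44) and 16 in Control members (range 1 to 75). The depth of the cells differed as well, since a member had a median of 3204 UMIs in the DOPAC library and 6585 in the Control library. Summed, the members gave 647142 UMIs in the DOPAC library and 862662 in the Control library. Levels are given as counts per 1000000 UMIs (CPM) of these sums, and intervals at 95% are exact and cover counting error only.

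Ly49 reads were seen outside T cells, which sets the level at which a single UMI can be read. Among macrophages, 0.911% of 1207 cells in the DOPAC library (median 3780 UMIs) and 1.56% of 3262 cells in the Control library (median 12017.5 UMIs) held a Klra1 or Klra6 UMI. Among T cells that met every other condition and had Helios, the share was 6.03% of 2554 in the DOPAC library (median 4471.5 UMIs) and 33.1% of 357 in the Control library (median 6593 UMIs). T cells without a Helios UMI lay between, at 1.84% of 1961 in the DOPAC library and 4.49% of 379 in the Control library. With every cell thinned to 1000 UMIs, the share was 2.22% of Helios-positive T cells and 0.259% of macrophages in the DOPAC library. Control cells at that depth gave 9.52% of Helios-positive T cells and 0.186% of macrophages. The share in Helios-positive T cells was above that in macrophages in both libraries, at equal depth as well.

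The cells just outside and just inside the rule had these values. T cells with Ly49 but no Helios UMI numbered 36 in the DOPAC library and 17 in the Control library, and their Sidt1 level was 399.5 CPM in the DOPAC library and 1502 CPM in the Control library. Just inside, members with exactly 1 Klra1 or Klra6 UMI had Klra7 at 223 CPM in the DOPAC library and 186 CPM in the Control library. Members with 2 or more such UMIs had Klra7 at 321 CPM in the DOPAC library and 319 CPM in the Control library. Of the conditions that exclude cells, the one on C1qa, C1qb and Csf1r removed the most. It alone kept 32 cells of the DOPAC library and 119 of the Control library from membership, of which 20 in the DOPAC library and 72 in the Control library held a single UMI of those macrophage genes.

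As a share of T cells, members were rarer in the DOPAC library. They made up 3.23% (2.75 to 3.77) of 4766 T cells in the DOPAC library and 13.4% (11.2 to 15.8) of 881 T cells in the Control library, a difference of -10.2 percentage points (Newcombe interval -12.6 to -8.00). T cells were here all cells with a CD3 UMI and none of Ncr1, Cd79a, C1qa, C1qb and Csf1r. They were 47.2% of the DOPAC cells and 10.4% of the Control cells, so the denominators of the member shares differed. As a share of all cells, members were 1.53% (1.30 to 1.78) in the DOPAC library and 1.40% (1.16 to 1.67) in the Control library, a difference of 0.128 points whose interval of -0.224 to 0.473 includes 0.

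Depth and the macrophage condition bear on these shares. The macrophage condition removed 25.4% of 6392 CD3-positive cells in the DOPAC library and 64.7% of 2498 in the Control library. Without it, 186 members were 2.91% of T cells in the DOPAC library and 237 were 9.49% in the Control library. As a share of all cells they were then 1.84% in the DOPAC library and 2.81% in the Control library, a difference of -0.964 points (-1.41 to -0.530). With cells thinned to 1000 UMIs before the rule, 41 members were 0.977% of 4196 T cells in the DOPAC library and 37 were 3.07% of 1207 in the Control library. Thinning also removes UMIs of the excluding genes, and Control T cells numbered 1207 in place of 881. This setting thus changed depth and the exclusions together. The share of T cells was lower in the DOPAC library under each of the 4 settings plotted. The difference in the share of all cells ranged there from 0.128 to -0.964 points and so changed its sign with the setting.

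**Figure D1:**
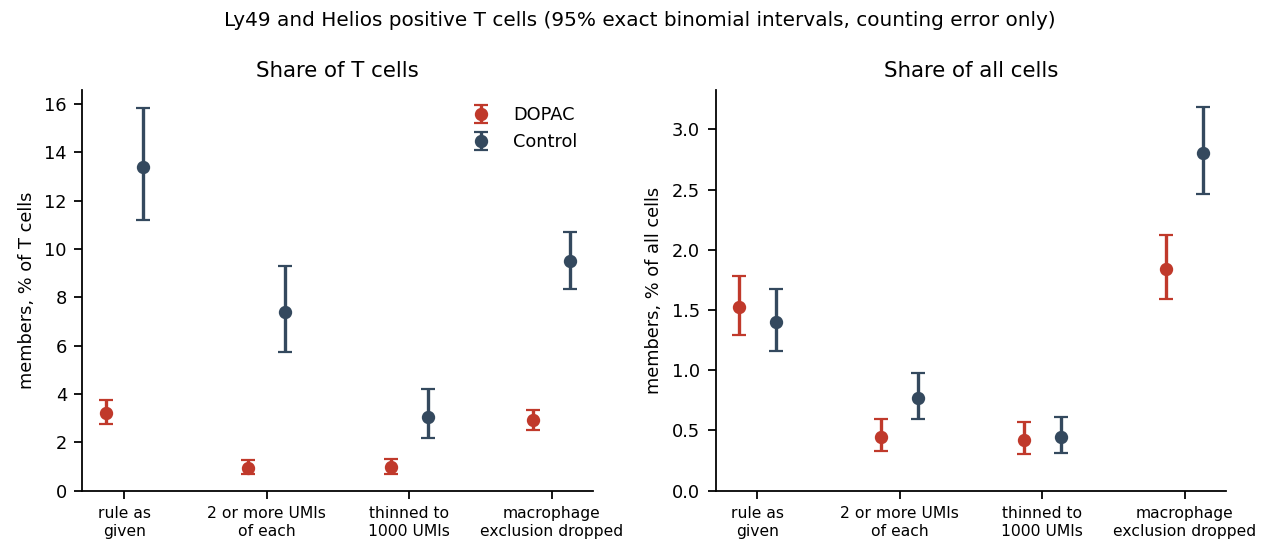
Share of members among T cells (left axis, percent) and among all cells (right axis, percent) in the DOPAC and Control libraries under 4 settings, with points for the share and bars for its 95% exact binomial interval. By the rule as given the members were 3.23% of T cells in the DOPAC library and 13.4% in the Control library, and 1.53% of all cells in the DOPAC library and 1.40% in the Control library.

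The levels of the genes in the rule were fixed in part by it and are given first. Klra1 averaged 201 CPM in DOPAC members and 214 CPM in Control members, and Klra6 173 CPM in DOPAC members and 139 CPM in Control members. Klra1 alone was seen in 69 members, Klra6 alone in 71 and both in 14 in the DOPAC library. Of the Control members, 46 had Klra1 alone, 46 had Klra6 alone and 26 had both. Ikzf2 stood at 2477 CPM in DOPAC members and 2747 CPM in Control members, against 3068 CPM in DOPAC and 3014 CPM in Control Foxp3-positive T cells. The marker Trdc, the constant segment of the delta chain of the gamma delta T-cell receptor, was found in a minority of members, as given further on.

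Klra7, which encodes the inhibitory receptor Ly49G and was not used by the rule, was the gene named first when members were ranked against other T cells. Other T cells met every exclusion of the rule and had neither a Ly49 nor a Helios UMI, and they numbered 1925 in the DOPAC library and 362 in the Control library. Klra7 reached 255 CPM (218 to 297) in members and 20.4 CPM in other T cells of the DOPAC library, 12.5-fold higher in members (10.0 to 15.7). In the Control library it reached 268 CPM (234 to 305) in members and 28.4 CPM in other T cells, 9.42-fold higher in members (7.19 to 12.5). The intervals of members and other T cells did not overlap in either library. NK cells held 235 CPM of Klra7 in the DOPAC library and 284 CPM in the Control library, and the interval of the members' fold over NK cells included 1 in both (0.877 to 1.34 in DOPAC and 0.798 to 1.11 in Control). At 1000 UMIs per cell, Klra7 was seen in 22.7% of DOPAC members and 26.3% of Control members, against 2.16% of DOPAC macrophages and 1.39% of Control macrophages.

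Klra9, Klra3 and Klra5, which encode inhibitory receptors, were higher in members than in other T cells in both libraries. Klra9 (Ly49I) had 35.5 CPM in DOPAC members and 34.8 CPM in Control members, against 9.54 CPM in DOPAC and 10.0 CPM in Control other T cells. Klra3 (Ly49C) had 23.2 CPM in DOPAC members and 29.0 CPM in Control members, 2.64-fold (1.40 to 4.67) above other T cells in the DOPAC library and 2.59-fold (1.45 to 4.60) in the Control library. Klra5 (Ly49E) had 29.4 CPM in DOPAC members and 11.6 CPM in Control members, whereas other T cells had 3.09 CPM (24 UMIs) in the DOPAC library and 5 UMIs in all in the Control library, where the level of members was 5.79-fold higher (1.80 to 21.6). Others of the inhibitory kind did not share this. Klra2 (Ly49B) had 4 UMIs in members and 105 in other T cells of the DOPAC library (6.18 and 13.5 CPM), and 5 UMIs in members and 7 in other T cells of the Control library (5.80 and 2.80 CPM). Klra17 (Ly49Q) had 1 UMI in members and 38 in other T cells of the DOPAC library, and in the Control library 20.9 CPM in members and 8.01 CPM in other T cells. Of the 18 Klra17 UMIs in Control members, 17 came from 1 cell, which also held Siglech and Tcf4 RNA and is described further on. Klra10 had no UMI in members.

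The activating genes were not higher in members either. Klra4, which encodes Ly49D, had 32.5 CPM in members and 31.4 CPM in other T cells of the DOPAC library, and 13.9 CPM in members and 62.9 CPM in other T cells of the Control library. Klra8, which encodes Ly49H, had 38.6 CPM in members and 38.2 CPM in other T cells of the DOPAC library, and 35.9 CPM in members and 44.4 CPM in other T cells of the Control library. NK cells held much more of both, with Klra4 10.7-fold higher in DOPAC NK cells than in DOPAC members (6.90 to 17.6) and 39.6-fold higher in Control (22.5 to 77.0). The near-identity of Ly49 transcripts limits such counts. Of the stretches of 50 bases in each transcript, 29.8% of Klra9 and 20.7% of Klra3 were shared with another Ly49 gene, against 2.98% of Klra1, 1.31% of Klra6 and 0% of Klra7.

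Members with several Ly49 genes were few at this depth. Of the 8 Ly49 genes outside the rule that were counted per cell, 73 DOPAC members and 33 Control members had none. A single such gene was seen in 58 DOPAC members and 61 Control members, and 2 such genes in 17 DOPAC members and 21 Control members. Control members were deeper, and an unseen gene is not shown to be absent.

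Other receptors of NK cells differed in where members stood. Klrb1c, which encodes the NK marker NK1.1, had 58.7 CPM in members, 14.6 CPM in other T cells and 154 CPM in NK cells of the DOPAC library. Klrb1c had 102 CPM in members, 28.8 CPM in other T cells and 389 CPM in NK cells of the Control library. T cells with Ly49 but no Helios UMI held it at 71.3 CPM (10 UMIs) in the DOPAC library and 127 CPM (15 UMIs) in the Control library. Those with Helios but no Ly49 UMI held 12.6 CPM in the DOPAC library and 39.9 CPM in the Control library. Klre1, a partner of inhibitory and activating NK receptors, had 189 CPM in members and 109 CPM in other T cells of the DOPAC library, and 190.1 CPM in members and 60.9 CPM in other T cells of the Control library. Cd160, a receptor for HVEM and MHC class I, had 47.9 CPM in members, 22.4 CPM in other T cells and 35.4 CPM in NK cells of the DOPAC library, and 54.5 CPM in members, 14.4 CPM in other T cells and 23.8 CPM in NK cells of the Control library. Its fold in members over NK cells was 1.35 (0.791 to 2.31) in the DOPAC library and 2.29 (1.44 to 3.69) in the Control library. Klrk1, which encodes NKG2D, was 221 CPM in members and 217 CPM in other T cells of the DOPAC library, and 262 CPM in members and 124.5 CPM in other T cells of the Control library.

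Of the signalling adaptors, Fcer1g and Tyrobp were lower in members than in NK cells and Hcst was not. Fcer1g, the adaptor chain of several activating receptors, reached 443 CPM in members, 305 CPM in other T cells and 993 CPM in NK cells of the DOPAC library. Control cells had Fcer1g at 467 CPM in members, 361.5 CPM in other T cells and 1566 CPM in NK cells. T cells with Ly49 but no Helios UMI held Fcer1g at 414 CPM in the DOPAC library and 819 CPM in the Control library. Those with Helios but no Ly49 UMI held 218 CPM in the DOPAC library and 277 CPM in the Control library. Tyrobp, the DAP12 adaptor through which activating Ly49 receptors signal, was 4.14-fold higher in DOPAC NK cells than in DOPAC members (3.46 to 4.98) and 6.31-fold higher in Control NK cells than in Control members (5.52 to 7.25). Hcst, the DAP10 adaptor of NKG2D, had 391 CPM in members and 365 CPM in NK cells of the DOPAC library (fold 1.07, 0.903 to 1.27), and 313 CPM in members and 338 CPM in NK cells of the Control library (fold 0.926, 0.794 to 1.08). Eomes, a transcription factor of NK and memory CD8 cells, had 35.5 CPM in DOPAC members and 34.8 CPM in Control members, against 150.0 CPM in DOPAC and 247 CPM in Control NK cells. Trac, the constant segment of the alpha chain, went the other way, with 312 CPM in DOPAC members and 278 CPM in Control members, against 36.6 CPM in DOPAC and 32.4 CPM in Control NK cells.

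Of 8910 genes with at least 20 UMIs in the summed members and other T cells of each library, 406 (4.56%) were at least 1.5-fold higher in members in both libraries and 526 (5.9%) at least 1.5-fold lower. This contrast used the genes of the rule, so the counts and the genes are a description. Sidt1, which encodes a transmembrane protein linked to RNA transport, was given as a marker of these cells. It had 539 CPM in members and 177 CPM in other T cells of the DOPAC library, and 1115 CPM in members and 533 CPM in other T cells of the Control library. The level in the members of the DOPAC library was near that of the other T cells of the Control library, so Sidt1 separated members only within a library.

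The genes named for a higher level in members encode proteins of different kinds, with signalling proteins among them. Myo1e, an unconventional myosin, was 4.73-fold (3.80 to 5.86) and 6.08-fold (4.82 to 7.71) higher in the members of the DOPAC and Control libraries. Spry2, a brake on growth factor and antigen receptor signalling through Ras, was 3.45-fold (2.76 to 4.30) and 4.34-fold (3.04 to 6.25) higher. Pde2a, which breaks down cyclic nucleotides, was 3.59-fold (2.75 to 4.65) and 2.90-fold (2.49 to 3.38) higher. Abl1, a tyrosine kinase, was 3.12-fold (2.40 to 4.01) and 3.64-fold (2.97 to 4.48) higher. Mgat5, a Golgi enzyme that adds branches to N-glycans and raises the T-cell activation threshold, was 3.45-fold (3.03 to 3.92) and 2.55-fold (2.29 to 2.85) higher. The rest of the 12 were Snx13, Ppp2r3a, Pakap, St6galnac3, Lrmda and Cables1, whose folds ran between 2.49 and 5.92. All these folds are over other T cells of the same library. In the DOPAC library Myo1e was 1.54-fold (1.23 to 1.94) higher in NK cells than in members, and Spry2 1.71-fold (1.35 to 2.17). Pde2a was 1.37-fold (1.03 to 1.84), Mgat5 1.51-fold (1.32 to 1.73) and Lrmda 2.01-fold (1.67 to 2.43) higher in NK cells there. Abl1, Snx13, Ppp2r3a, Pakap and St6galnac3 were higher in members than in those NK cells, and Cables1 had 178 CPM in both.

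Apart from Cst3, the 12 genes named for a lower level in members stood between 0 and 12.8 CPM in members. Rnf150 had no UMI in members of either library, against 67 UMIs in DOPAC other T cells and 82 UMIs in Control other T cells, at least 1.86-fold and at least 9.44-fold lower when set against a floor of 3 UMIs in the summed members. Tns3, a focal adhesion protein, had 4.64 CPM in members and 34.0 CPM in other T cells of the DOPAC library, and 12.8 CPM in members and 59.3 CPM in other T cells of the Control library. Several others are genes of myeloid or antigen-presenting cells. Cst3, a protease inhibitor abundant in dendritic cells, had 341.5 CPM in members and 1359 CPM in other T cells of the DOPAC library, and 705 CPM in members and 2768 CPM in other T cells of the Control library. Arg1, an arginine-degrading enzyme of myeloid cells, and Ciita, the master activator of MHC class II genes, were named as well, with St8sia1, Shtn1, Cpm, Plcb1, Ifitm6, Ppfibp2 and Cadm1.

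The summed RNA of dendritic cells, macrophages and melanoma was also lower in members. The 5 dendritic cell markers summed to 392.5 CPM in members and 830 CPM in other T cells of the DOPAC library, and to 515 CPM in members and 1947 CPM in other T cells of the Control library. H2-Ab1 gave most of the dendritic cell sum. The 4 macrophage markers outside the rule, all seen, summed to 148 CPM in members and 354 CPM in other T cells of the DOPAC library, and to 316 CPM in members and 468 CPM in other T cells of the Control library. The 4 melanoma markers summed to 6.18 CPM in DOPAC members and 13.9 CPM in Control members, against 60.7 CPM in DOPAC and 47.6 CPM in Control other T cells. The share of Control cells with any such UMI was not lower in members. Dendritic cell markers were seen in 86.4% of Control members and 77.3% of Control other T cells, macrophage markers in 89.0% and 87.3%, and melanoma markers in 9.32% and 8.56%. In the DOPAC library these shares were 33.1% and 42.2%, 35.1% and 40.2%, and 1.95% and 2.60%. The 4 listed NK cell markers summed to 351 CPM in members and 286 CPM in other T cells of the DOPAC library, and to 434 CPM in members and 205 CPM in other T cells of the Control library. The B-cell marker Ms4a1 was at 0 in members of both libraries. Haemoglobin RNA was at 0 in DOPAC members and at 1064 CPM in Control members, against 0.902 CPM in DOPAC and 37.2 CPM in Control other T cells, and came almost wholly from 1 Control member. The part of this RNA in the lower levels of Cst3, Ciita, Arg1 and Ifitm6 was not tested.

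**Figure D2:**
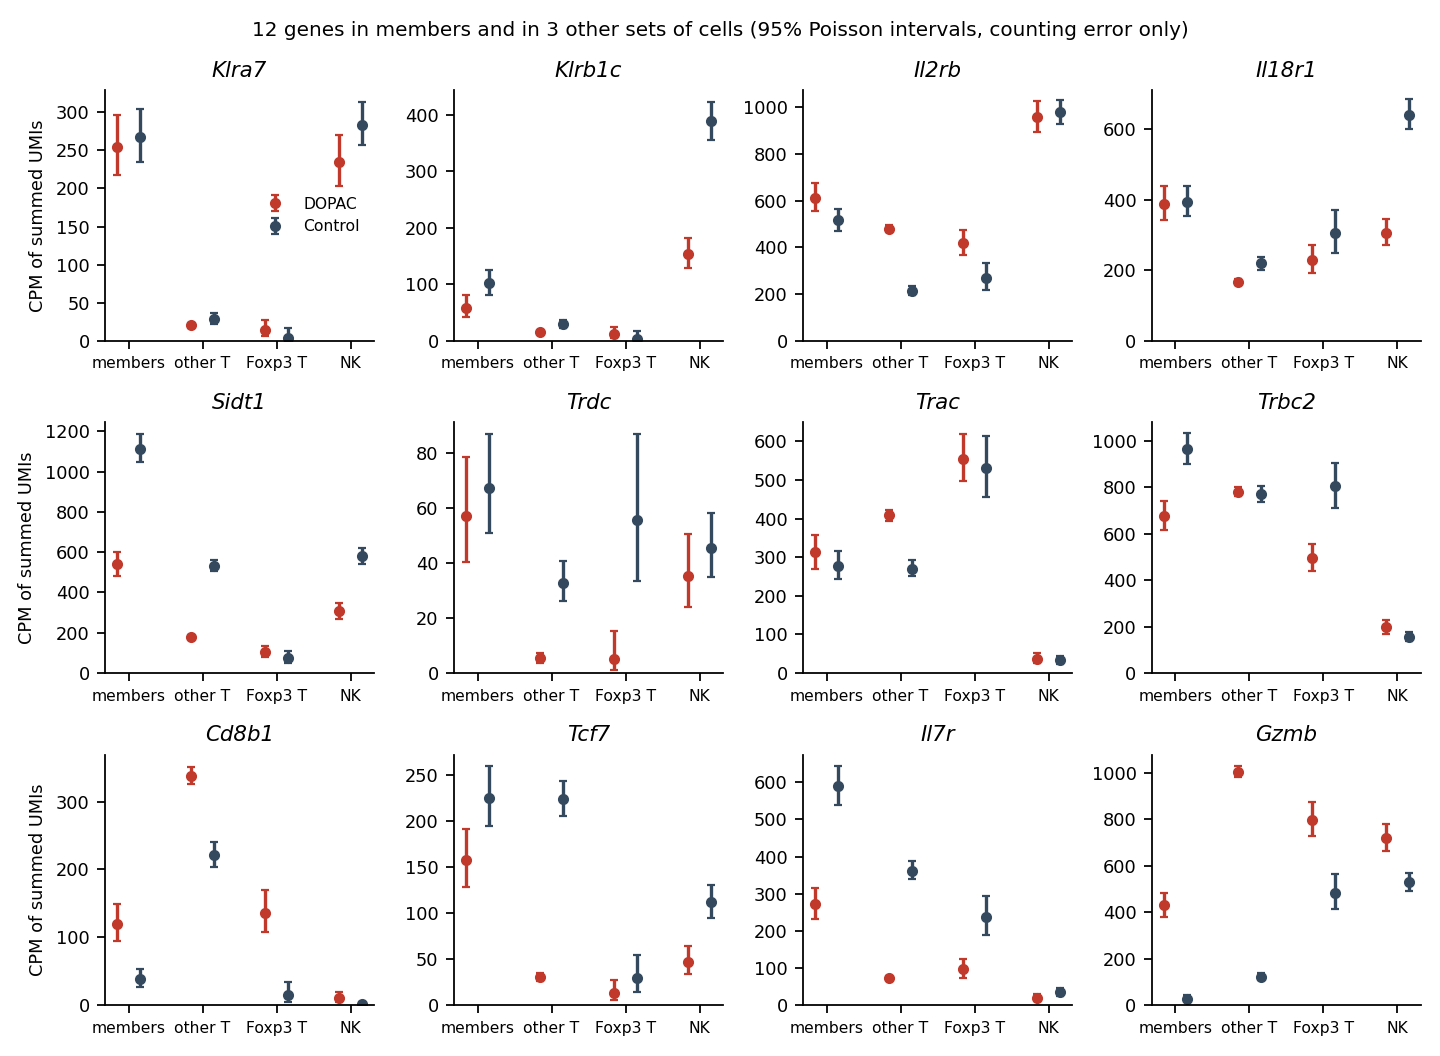
CPM of summed UMIs (vertical axes) of 12 genes in members, other T cells, Foxp3-positive T cells and NK cells of the DOPAC and Control libraries, with bars for 95% Poisson intervals of counting error. Klra7 stood at 255 CPM in DOPAC members and 268 CPM in Control members, near the NK cells and far above other T cells, whereas Trac and Trbc2 in members were near the T cells.

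Most members held RNA of the alpha beta T-cell receptor. Trac was seen in 93 of 154 DOPAC members (60.4%) and 87 of 118 Control members (73.7%), and Trac, Trbc1 or Trbc2 in 96.1% of DOPAC members and 99.2% of Control members. Trbc1 did not separate members from NK cells, at 471 CPM in members and 563 CPM in NK cells of the DOPAC library. Trbc2 did, at 675 CPM in members and 196 CPM in NK cells there. The wider share thus does not by itself name alpha beta T cells. Trdc was seen in 17 DOPAC members (11.0%) and 16 Control members (13.6%), and in 1.66% of DOPAC macrophages and 2.48% of Control macrophages. Without a Trac UMI in the same cell it was seen in 12 DOPAC and 11 Control members. At 1000 UMIs per cell, Trdc was seen in 5.84% of DOPAC members and 4.24% of Control members, against 0.867% of DOPAC and 1.97% of Control other T cells. NK cells held it at 4.07% in the DOPAC library and 4.93% in the Control library, so a Trdc UMI alone does not name a gamma delta T cell here.

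As a level, Trdc was 57.2 CPM (40.3 to 78.8) in members and 5.28 CPM in other T cells of the DOPAC library, 10.8-fold higher in members (6.75 to 17.3). In the Control library it was 67.2 CPM (51.1 to 86.9) in members and 32.8 CPM in other T cells, 2.05-fold higher in members (1.44 to 2.90). The members of both libraries lay close to each other, and it was the other T cells that differed. T cells with Helios but no Ly49 UMI held Trdc at 10.1 CPM in the DOPAC library. In the Control library they held it at 137 CPM, above the members. Of the 58 Trdc UMIs in Control members, 19 came from 1 cell. Against all T cells of the same exclusions that were no members, the Trdc ratio in the Control library turned to -0.17 on the log2 scale. Tcrg-C4, a gamma chain constant segment, had 17 UMIs in members and 8 in other T cells of the DOPAC library, and 24 in members and 9 in other T cells of the Control library. Il17a, Sox13, Blk and Il23r, genes of IL-17-producing gamma delta T cells, had no UMI in members of either library, and Cd163l1 had 0 UMIs in DOPAC members and 3 in Control members.

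Variable segments were read in few members and were spread over several genes. A Trbv segment was seen in 13 DOPAC members, over 8 different genes, and in 14 Control members, over 7 different genes. The most frequent were Trbv2 and Trbv20 in the DOPAC library, with 3 of 13 members each, and Trbv12-2 in the Control library, with 6 of 14. A Trav segment was seen in 15 DOPAC members and 20 Control members, over 15 different genes in each library. Trav11, the segment of the invariant receptor of NKT cells, had no UMI in members. Zbtb16, which encodes PLZF, the factor of innate-like T cells, had 46.4 CPM in DOPAC members and 92.7 CPM in Control members, against 4.38 CPM in DOPAC and 44.4 CPM in Control other T cells. Of the 80 Zbtb16 UMIs in Control members, 32 came from 1 cell.

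CD8 coreceptor genes were less frequent in members than in other T cells. A Cd8a or Cd8b1 UMI was seen in 46 DOPAC members (29.9%) and 17 Control members (14.4%), against 65.1% of DOPAC and 52.5% of Control other T cells. At 1000 UMIs per cell the share was 14.3% (9.17 to 20.8) in DOPAC members and 3.39% (0.931 to 8.45) in Control members. Other T cells had 37.7% in the DOPAC library and 22.5% in the Control library at that depth, and NK cells, which lack CD8 alpha beta, 2.71% and 1.79% in the same libraries. The interval of Control members included the NK share, while the interval of DOPAC members lay above the NK share. Since the rule excluded Cd4, most members had no coreceptor UMI, namely 108 of 154 in the DOPAC library and 101 of 118 in the Control library.

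**Figure D3:**
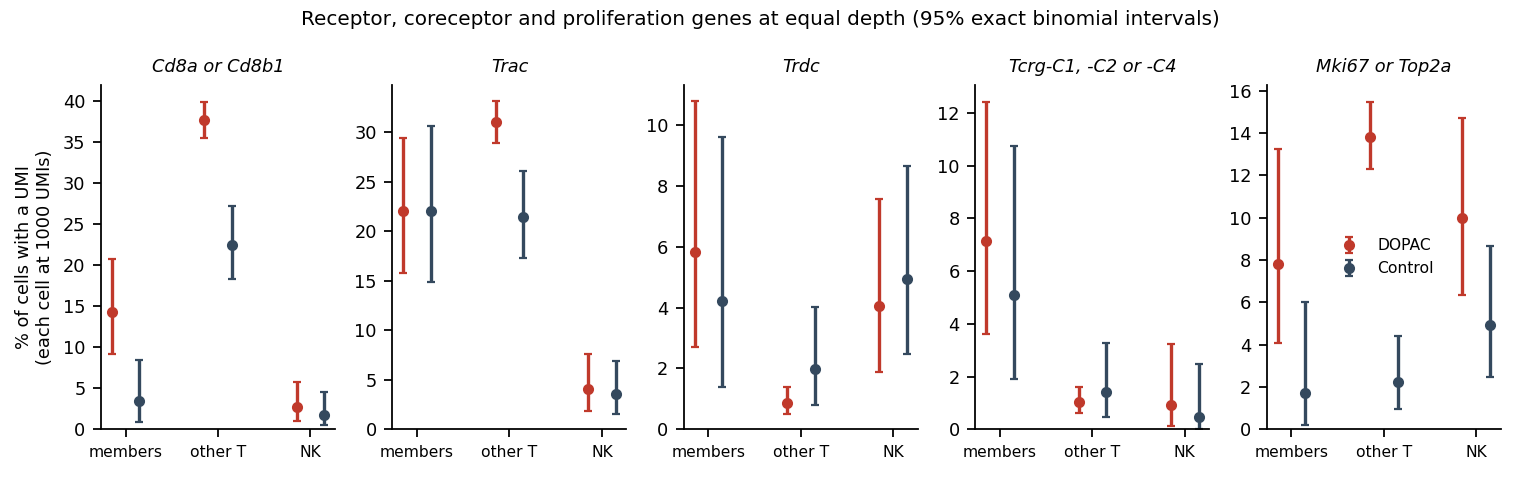
Percentage of cells with a UMI of CD8, receptor chain and proliferation genes (vertical axes) after every cell was thinned to 1000 UMIs, in members, other T cells and NK cells of the DOPAC and Control libraries, with 95% exact binomial intervals. CD8 genes were seen in 14.3% of DOPAC members and 3.39% of Control members, below the 37.7% of DOPAC and 22.5% of Control other T cells.

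The receptor chains Il12rb2 and Il18r1 were higher in members than in other T cells, and Il2rb passed 1.5-fold in the Control library. Il12rb2, a chain of the IL-12 receptor, had 411 CPM in members and 199 CPM in other T cells of the DOPAC library, and 458 CPM in members and 202 CPM in other T cells of the Control library. Il18r1, a chain of the IL-18 receptor, had 388 CPM in members and 166 CPM in other T cells of the DOPAC library, and 394 CPM in members and 219 CPM in other T cells of the Control library. Il2rb, the chain shared by the IL-2 and IL-15 receptors, was 1.28-fold (1.15 to 1.42) higher in members of the DOPAC library and 2.40-fold (2.11 to 2.73) higher in members of the Control library. NK cells of the DOPAC library held more Il12rb2 (539 CPM) and Il2rb (959 CPM, against 613 CPM in members) and less Il18r1 (306 CPM). Of the other listed chains, Il12rb1 had 5 UMIs in DOPAC members, and Il18rap had 113 CPM in DOPAC members and 188 CPM in DOPAC NK cells. Of 12 listed cytokine receptor genes tested in the DOPAC library, 3 were at least 1.5-fold higher in members and 2 lower, with a median log2 ratio of 0.39 against 0.02 over all genes, of which 16.8% were higher and 16.1% lower. Of 11 tested in the Control library, 7 were higher and 1 lower, with a median of 0.66 against -0.01 over all genes, of which 12.2% were higher and 15.5% lower.

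Single surface molecules also differed from other T cells. Of 9 residency genes tested, 3 were higher and 1 lower in members of the DOPAC library (median log2 ratio 0.30), and 3 were higher and 2 lower in members of the Control library (median 0.16). All genes gave 16.8% higher and 16.1% lower in the DOPAC library, and 12.2% higher and 15.5% lower in the Control library. Cd69, a retention and early activation molecule, had 279.7 CPM in members and 109 CPM in other T cells of the DOPAC library, and 369.8 CPM in members and 202 CPM in other T cells of the Control library. Nt5e, which encodes the adenosine-generating enzyme CD73, had 100.4 CPM in members and 28.5 CPM in other T cells of the DOPAC library, and 89.3 CPM in members and 38.8 CPM in other T cells of the Control library. The chemokine receptor Cxcr4 was 2.65-fold (1.95 to 3.56) higher in members of the DOPAC library and 2.39-fold (1.67 to 3.40) higher in members of the Control library. Themis, a regulator of T-cell receptor signalling during thymic selection, was lower, with 352 CPM in members and 851 CPM in other T cells of the DOPAC library, and 178.5 CPM in members and 440.0 CPM in other T cells of the Control library.

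Genes of naive and memory-like T cells stood apart from other T cells in the DOPAC library. There, 7 of 9 listed genes were at least 1.5-fold higher in members and 1 was lower, with a median log2 ratio of 1.43. Of the 9 in the Control library, 1 was higher and 2 were lower, with a median of 0.01. The shares over all genes were 16.8% higher and 16.1% lower in the DOPAC library, and 12.2% higher and 15.5% lower in the Control library. Tcf7 had 158 CPM in members and 30.4 CPM in other T cells of the DOPAC library, and 225 CPM in members and 223 CPM in other T cells of the Control library. Il7r, the IL-7 receptor, had 272 CPM in members and 72.7 CPM in other T cells of the DOPAC library, and 589 CPM in members and 362 CPM in other T cells of the Control library. The levels of both in members differed less between the libraries than the levels in other T cells, and that difference was not tested.

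The regulatory genes listed for Ly49-positive CD8 T cells gave counts of higher genes near the shares over all genes, 16.8% in the DOPAC library and 12.2% in the Control library. Of 8 tested in the DOPAC library 1 was higher in members and 3 lower, and of 9 tested in the Control library 1 was higher and 0 lower. Of all genes, 16.1% were lower in the DOPAC library and 15.5% in the Control library. The count of lower genes in the DOPAC library was thus above that share, a difference that was not tested. Their median log2 ratio was -0.27 in the DOPAC library and -0.04 in the Control library. Ctla4, an inhibitory receptor of regulatory T cells, was 134 CPM in DOPAC members and 54.5 CPM in Control members, against 1362 CPM in DOPAC and 1695 CPM in Control Foxp3-positive T cells.

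Between the libraries, the 12 genes named as higher in DOPAC members were mostly genes of dividing cells, with Gzmb, Gzma and S100a4, and those named as lower held Jun, Junb, Klf2 and Lef1. Of 6826 genes with at least 20 UMIs in the members of both libraries together, 994 (14.6%) were at least 1.5-fold higher in DOPAC members and 1225 (17.9%) at least 1.5-fold lower. In 630 (9.23%) of them the counting interval of the higher level also lay above 1, and in 733 (10.7%) that of the lower level lay below 1. Other T cells of the same libraries gave 16.6% higher and 20.9% lower of 11245 genes, so the share of genes past that fold in members was near that of T cells without Ly49 and Helios. A set of 18 genes at least 2-fold apart in the same direction in other T cells, NK cells and macrophages as well was left out of the genes named below.

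Gzmb had the second largest log2 ratio of the 12, after Pclaf. Gzmb, the serine protease that triggers apoptosis in target cells, had 429.6 CPM (381 to 483) in DOPAC members and 29.0 CPM (18.8 to 42.8) in Control members, 14.8-fold higher (9.83 to 23.3). A Gzmb UMI was seen in 70 DOPAC members and 16 Control members, and no DOPAC member held more than 24 of the 278 UMIs. At 1000 UMIs per cell Gzmb was seen in 23.4% of DOPAC members and 3.39% of Control members, against 9.15% of DOPAC macrophages and 1.36% of Control macrophages. In other T cells Gzmb was 1004 CPM in the DOPAC library and 122.5 CPM in the Control library, so members had less than other T cells in both.

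Gzma had a different fold in members and in other T cells, a difference that was not tested. It had 363 CPM in DOPAC members and 44.0 CPM in Control members, 8.24-fold higher in DOPAC members (5.83 to 11.9). Other T cells had 299.5 CPM in the DOPAC library and 335 CPM in the Control library, a fold of 0.894 (0.826 to 0.969). The 235 Gzma UMIs of DOPAC members came from 35 cells, the highest of which held 43. Prf1, which encodes the pore-forming perforin, had 95.8 CPM in DOPAC members and 26.7 CPM in Control members, 3.59-fold higher (2.19 to 6.08). Other effector genes did not differ that far, such as Nkg7 at 621 CPM in DOPAC members and 458 CPM in Control members, and Fasl at 34.0 CPM in DOPAC members and 37.1 CPM in Control members. Of 9 cytotoxic genes tested, 3 were higher and 1 lower, with a median log2 ratio of -0.11. All genes tested in members had a median of -0.03, with 14.6% higher and 17.9% lower.

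Proliferation genes were higher in sum. The 15 listed genes, counted whatever their level, summed to 663 CPM (602 to 729) in DOPAC members and 138 CPM (114 to 165) in Control members. Other T cells had 941 CPM in the DOPAC library and 269 CPM in the Control library. Of the 15, 7 reached the minimum of 20 UMIs, and all 7 were at least 1.5-fold higher in DOPAC members (median log2 ratio 2.68). Most of them reached it through their DOPAC counts, so nothing is read from that count or median. Top2a, the DNA topoisomerase of dividing cells, had 129.8 CPM in DOPAC members and 10.4 CPM in Control members, 12.4-fold higher (6.25 to 28.2). Pclaf, a partner of the replication clamp, had 80 UMIs in DOPAC members and 4 in Control members, which were 124 CPM and 4.64 CPM. Stmn1, Hist1h2ap, Hist1h2ae, Diaph3, Dut and Pola1 followed, with folds between 5.11 and 7.78. Members with 2 or more UMIs of Mki67 and Top2a together were 21 of 154 (13.6%) in the DOPAC library and 3 of 118 (2.54%) in the Control library. Without those cells Gzmb remained at 344 CPM in DOPAC members and 27.2 CPM in Control members.

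The calcium-binding S100a4, a gene of effector and migrating cells, had 479 CPM in DOPAC members and 102 CPM in Control members, 4.70-fold higher (3.69 to 6.02). Ifitm1, an interferon-induced membrane protein, completed the 12, at 86.5 CPM in DOPAC members and 18.5 CPM in Control members. Of the 56 Ifitm1 UMIs in DOPAC members, 29 came from 1 cell. The metallothionein Mt1, which binds zinc and copper, had 181 CPM in DOPAC members and 42.9 CPM in Control members, 4.22-fold higher (2.89 to 6.28). In other T cells Mt1 was 455 CPM in the DOPAC library and 101 CPM in the Control library.

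The AP-1 genes Junb and Jun and the factor Klf2 were lower in DOPAC members. Junb, a subunit of AP-1, had 298 CPM in DOPAC members and 1432 CPM in Control members, 4.80-fold lower (4.12 to 5.62). Jun, another subunit, had 117 CPM in DOPAC members and 544 CPM in Control members, 4.63-fold lower (3.63 to 5.98). Klf2, which maintains expression of egress receptors, had 55.6 CPM in DOPAC members and 391 CPM in Control members, 7.02-fold lower (4.97 to 10.2). The same genes were lower in DOPAC other T cells, with Junb at 249 CPM in the DOPAC library and 1183 CPM in the Control library.

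Lef1, the partner factor of TCF-1, had 250.3 CPM in DOPAC members and 934 CPM in Control members, 3.73-fold lower (3.15 to 4.45). Il7r was 2.17-fold (1.82 to 2.59) lower and Sidt1 2.07-fold (1.83 to 2.34) lower in DOPAC members. Of 8 naive and egress genes tested, 4 were lower and 0 higher, with a median log2 ratio of -0.84, against 17.9% lower and 14.6% higher of all genes. In other T cells 9 of 9 were lower, with a median of -2.32, against 20.9% lower of all genes. Hdac9, Tbc1d8, Nsmce1, Hs3st3b1 and Bicra were the others named, 3.98-fold to 6.28-fold lower in DOPAC members. Tbc1d8 rested on few cells, with 67 UMIs in 9 Control members and all 8 UMIs of DOPAC members in 1 cell. Without the highest member of each library its log2 ratio was -5.15, against -2.50 with all members.

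A single Control member held much of the RNA of 3 of the 12 lower genes. Cacnb2, a calcium channel subunit, had 1 UMI in DOPAC members and 62 in Control members, of which 61 lay in 1 cell. The same Control member held 49 of 98 Fmnl2 UMIs and 104 of 146 Tcf4 UMIs. It also held 11 UMIs of Siglech, a marker of plasmacytoid dendritic cells, of which Tcf4 encodes the master regulator, with 1 Cd3g UMI and no Trac or Trbc2 UMI. Without the highest member of each library, the log2 ratio of Cacnb2 was -0.59, that of Tcf4 -0.86 and that of Fmnl2 -2.21, against -4.56 for Cacnb2, -2.46 for Tcf4 and -2.89 for Fmnl2 with all members. Among Control members 918 haemoglobin UMIs were counted, 884 of them in 1 cell, and DOPAC members had 0.

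**Figure D4:**
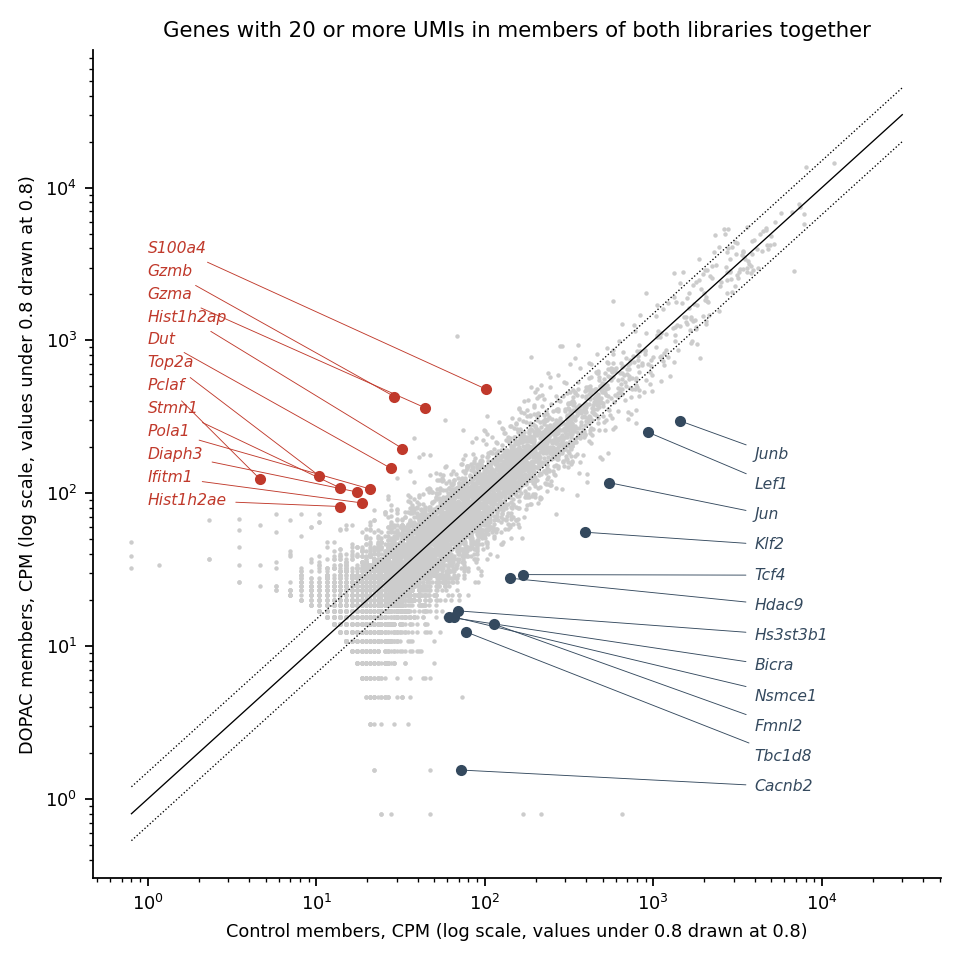
Level of each gene with at least 20 UMIs in the members of both libraries together, as CPM in DOPAC members (vertical, log axis) and in Control members (horizontal, log axis), with equal levels as a solid line and 1.5-fold as dotted lines. The 12 genes named as higher and the 12 named as lower in DOPAC members are labelled, with Gzmb at 429.6 CPM in DOPAC and 29.0 CPM in Control members and Junb at 298 CPM in DOPAC and 1432 CPM in Control members.

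Apart from Sidt1, several genes that were higher in members than in other T cells differed little between the libraries. Klra7 was 255 CPM in DOPAC members and 268 CPM in Control members, a fold of 0.952 (0.775 to 1.17). Of 6 Ly49 genes tested, 2 (Klra4 and Klra5) were higher in DOPAC members and 0 lower, with a median log2 ratio of 0.08. Trac, Trdc, Il12rb2, Il18r1 and Fcer1g all had folds between 0.850 and 1.12. None of 8 T-cell receptor complex genes outside the rule passed 1.5-fold in either direction. Among all genes tested in members, 14.6% were higher and 17.9% lower.

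CD8 genes did differ. Cd8b1 had 119 CPM in DOPAC members and 38.3 CPM in Control members, 3.11-fold higher (2.04 to 4.83), and Cd8a 127 CPM in DOPAC members and 30.1 CPM in Control members, 4.20-fold higher (2.68 to 6.81). Cd8a was among the 18 genes that differed alike in other T cells, NK cells and macrophages. Within the DOPAC library, members with a CD8 UMI (46 cells, median 5019.5 UMIs) and members without (108 cells, median 2936.5 UMIs) differed widely. Gzmb was 742 CPM (644 to 850) in CD8-positive members and 193 CPM (151 to 243) in CD8-negative members. S100a4 was 881 CPM in CD8-positive members and 174 CPM in CD8-negative members. The opposite held for Il7r, at 93.2 CPM in CD8-positive members and 408 CPM in CD8-negative members, and for Sidt1, at 308 CPM in CD8-positive members and 715 CPM in CD8-negative members.

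The CD8-positive members of the Control library were 17 cells. Their Gzmb was 23.0 CPM (6.28 to 59.0), against 30.5 CPM (18.9 to 46.6) in the 101 CD8-negative members. Their Sidt1 was 1118 CPM, against 1115 CPM in CD8-negative members. The difference between the libraries in Gzmb was present in CD8-negative members as well, at 193 CPM in the DOPAC library and 30.5 CPM in the Control library. Restricted to members with a Cd8a UMI, the Gzmb log2 ratio of DOPAC over Control was 4.42, and in members with at least 2 UMIs of both Klra1 plus Klra6 and of Ikzf2 it was 3.68. With the macrophage condition dropped it was 2.21, against 3.84 by the rule as given. The same change took the log2 ratio of Gzma to 1.77 from 3.01, of S100a4 to 1.08 from 2.22, of Ifitm1 to 0.91 from 2.16 and of Hdac9 to -0.89 from -2.28.

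DOPAC members with more Ly49 UMIs had less Top2a. Those with 2 or more Klra1 or Klra6 UMIs (47 cells) had Top2a at 33.1 CPM (13.3 to 68.2), against 177 CPM (140 to 221) in those with exactly 1 (107 cells). Gzmb was 288 CPM in the members with 2 or more and 498 CPM in those with exactly 1. Trdc was higher with 2 or more in both libraries, at 123 CPM in DOPAC members with 2 or more and 25.3 CPM with exactly 1, and at 86.9 CPM in Control members with 2 or more and 36.0 CPM with exactly 1. The Trdc UMIs came from 17 DOPAC and 16 Control members, and 1 Control member held 19 of the 58 Control UMIs. The split uses counts of genes in the rule, so it is a description only. These are sums over cells of 1 library each, and no test was made.

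Cytokine genes of members passed 1.5-fold about as often as all genes, of which 14.6% were higher and 17.9% lower. Xcl1, a chemokine for cross-presenting dendritic cells, had 377 CPM in DOPAC members and 440.5 CPM in Control members, against 290.3 CPM in DOPAC and 112 CPM in Control other T cells. Ifng, interferon gamma, had 51.0 CPM in DOPAC members and 96.2 CPM in Control members, 1.89-fold lower (1.25 to 2.92). In other T cells Ifng was 183 CPM in the DOPAC library and 44.4 CPM in the Control library. Of 8 cytokine and chemokine genes tested in members, 1 was higher and 1 lower, with a median log2 ratio of 0.01, while in other T cells 8 of 11 were higher and 1 lower, with a median of 1.08. All genes tested in other T cells gave 16.6% higher and 20.9% lower. The difference between members and other T cells was not tested.

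Some checkpoint genes were higher in DOPAC members. Havcr2, which encodes TIM-3, had 60.3 CPM in DOPAC members and 9.27 CPM in Control members, and Pdcd1, which encodes PD-1, 38.6 CPM in DOPAC members and 16.2 CPM in Control members. Other T cells had 179 CPM of Havcr2 and 121 CPM of Pdcd1 in the DOPAC library, and 26.4 CPM of Havcr2 and 29.6 CPM of Pdcd1 in the Control library. Of 9 checkpoint genes tested in members, 4 were higher and 1 lower (median log2 ratio 0.17), against 7 of 10 higher and 1 lower in other T cells (median 1.33). The shares over all genes were 14.6% higher and 17.9% lower in members, and 16.6% higher and 20.9% lower in other T cells. Cxcr6, a chemokine receptor of tumor-resident T cells, had 72.6 CPM in DOPAC members and 5.80 CPM in Control members, 12.5-fold higher (5.01 to 40.4), on 47 UMIs in DOPAC and 5 in Control members.

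The stress and interferon lists are set beside all genes tested in members, of which 14.6% were higher and 17.9% lower. The median log2 ratio of all these genes was -0.03. Of 10 NRF2 target genes tested, 4 were higher and 0 lower, with a median log2 ratio of 0.30. Txn1, which encodes thioredoxin, was the most covered of them, at 439 CPM in DOPAC members and 219 CPM in Control members, with an interval of the fold of 1.66 to 2.42. Of 7 mitophagy genes tested, 1 was higher and 3 were lower, with a median of -0.47. Of 12 interferon response genes tested, 6 were higher and 2 lower, with a median of 0.39. Among genes induced by the T-cell receptor, 5 of 11 were higher and 3 lower, with Tnfrsf9, which encodes the costimulatory receptor 4-1BB, at 260 CPM in DOPAC members and 74.2 CPM in Control members, and Nr4a1 at 81.9 CPM in DOPAC members and 154 CPM in Control members. Nr4a2, of the same family of nuclear receptors as Nr4a1, went the other way, at 700.0 CPM in DOPAC members and 424 CPM in Control members, 1.65-fold higher (1.43 to 1.90).

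**Figure D5:**
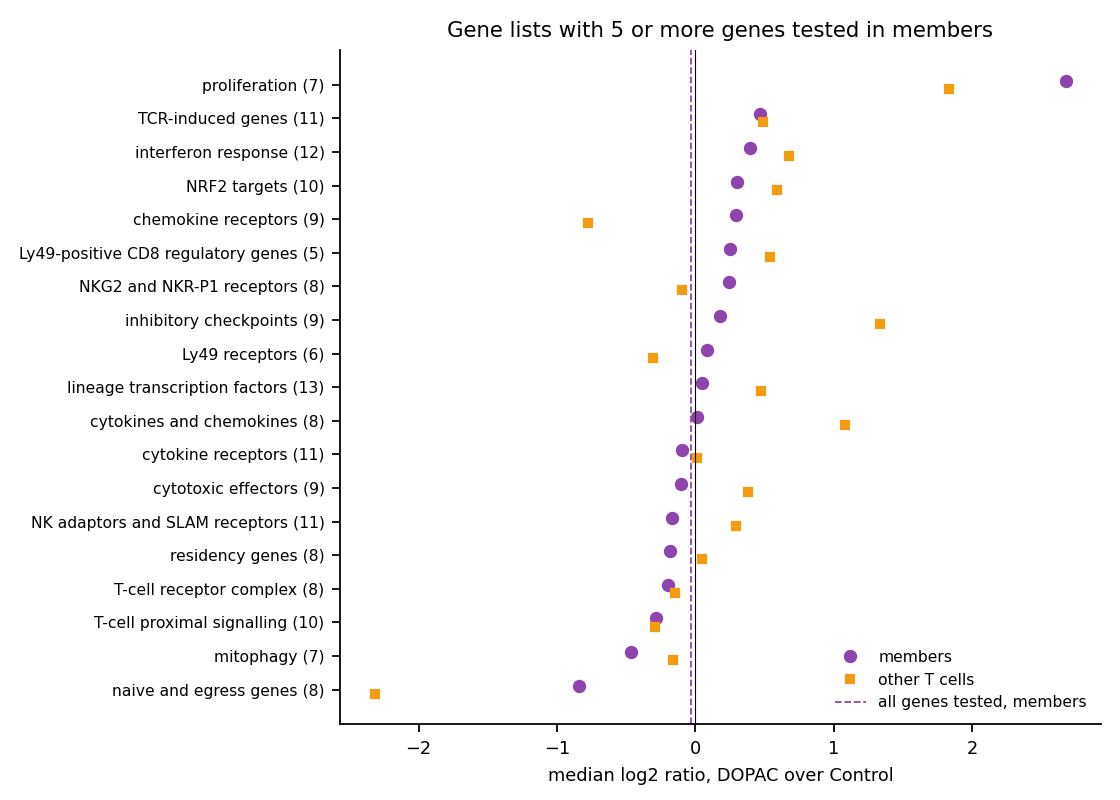
Median log2 ratio of DOPAC over Control (horizontal axis) of each gene list with at least 5 genes tested in members, for members (circles) and other T cells (squares), with the number of genes tested in members in parentheses and the median of all genes tested in members as a dashed line. Nothing is read from the proliferation median in members, 2.68, since its genes mostly passed the minimum through their DOPAC counts. Naive and egress genes had the lowest median in members, -0.84, while other T cells reached -2.32 for the naive and egress genes.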

How the data were processed

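The authors deposited raw UMI counts per gene and barcode, as 1 matrix of 32285 genes for each library. Cell Ranger 7.0.1 is named in the file headers, and GRCm38 is the build per the submitters' processing notes. The deposited counts totalled 47769958 UMIs over 10777 barcodes in the DOPAC library and 100938364 over 9629 in the Control library, with median depths of 3677 and 9571.5 UMIs in kept cells, and 32 barcodes occurred in both. Ambient RNA was not removed. The members, gene lists and tests were chosen with earlier results of these data known.

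UMIs were summed over the cells of each set, scaled to 1000000 and compared as log2 ratios with 1 count added. Folds in the text use the unadjusted CPM. A gene was counted as higher or lower from 1.5-fold. Intervals at 95% were exact (Poisson, conditional binomial, Clopper-Pearson) or Newcombe's. With 1 library per group there was no test. The procedure was tested on simulated data. Named genes were the 12 highest and 12 lowest ratios with at least 50 UMIs in the higher sum, plus genes of the rule and lists. Lists were compared with the median of all genes. Some listed genes are not reported here. Thinning used 1000 or 2000 UMIs per cell, and shallower cells were left out. Scrublet (scanpy 1.11.5) was an alternative. It marked 4.01% of Control cells. Its automatic threshold marked 0% of DOPAC cells, so the highest scores at the expected rate, 8.62%, were marked there. Coordinates are from GENCODE M21, promoters from RefSeq GRCm38.p6. Analyses used numpy 2.4.6, scipy 1.17.1 and pandas 2.3.3.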

Additional observations from a re-analysis of the deposited data

Results flagged for a closer look

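Fmnl2, which encodes a formin that builds actin filaments, stood on opposite sides of other T cells in the 2 libraries. Members over other T cells gave a log2 ratio of -1.79 in the DOPAC library, with 9 UMIs in members and 413 in other T cells, and of 0.81 in the Control library, with 98 UMIs in members and 163 in other T cells. The difference between the libraries was not tested. Of the 98 UMIs in Control members, 49 lay in the member that also held 104 Tcf4 and 61 Cacnb2 UMIs.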

How the results depend on the processing

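The difference in the share of T cells (-10.2 points) kept its direction under every setting run. It was -2.09 points with cells thinned to 1000 UMIs, -4.11 at 2000 UMIs, -6.43 with at least 2 UMIs of Klra1 plus Klra6 and of Ikzf2, and -6.58 without the macrophage condition, which was tried after seeing the data. The difference in the share of all cells (0.128 points) was -0.324 with at least 2 UMIs and -0.964 without the macrophage condition. Counts of genes higher in DOPAC members (994) became 588 with members thinned to 2000 UMIs, 505 with at least 50 UMIs per gene and 3344 with no minimum. Counts of lower genes (1225) became 642, 638 and 4114 under those settings and 654 in members with a Cd8a UMI. Genes higher than in other T cells (406) became 256 with at least 50 UMIs, and lower genes (526) became 290 with cells thinned and 222 against other T cells with CD8. With no minimum 14161 genes enter in place of 6826, and fewer cells or genes enter under the others, apart from the dropped macrophage condition. Of 50 results on single genes between the libraries, none past 1.5-fold changed direction over 573 values, and all 24 named genes kept theirs. Many of these values could not have changed it. The 50 values under each minimum-count setting repeat the reported ratio. Median-ratio and TMM scaling, with 50 values each, shift the ratios of all genes alike and by little. Hist1h2ap was under 1.5-fold (0.26 on the log2 scale) with at least 2 UMIs. Against other T cells with CD8, Cst3 turned to 1.19 in the Control library and Ifitm1 to 0.32 in the DOPAC library. Against all T cells that were no members, Trdc in the Control library turned to -0.17. The cause was not tested. Other scalings moved the median of all genes by at most 0.0141. No paired analysis was possible because each group holds 1 library. The depth of a member, 3204 UMIs at the median in the DOPAC library, limits any statement on a gene not seen in a cell.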

Other observations

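Members with a Trdc UMI, 17 in the DOPAC library and 16 in the Control library, differed from those without in some receptors and effectors. Xcl1 was 879 CPM (667 to 1136) in DOPAC members with Trdc, against 320.1 CPM (276 to 370) in DOPAC members without. In the Control library it was 661 CPM (510 to 842) with Trdc and 412 CPM (368 to 460) without. Fcer1g was 742 CPM (582 to 933) in Control members with Trdc and 432 CPM (386 to 481) in those without. Gzma was 60.6 CPM in DOPAC members with Trdc and 397.5 CPM in those without, and in the Control library it had 0 UMIs with Trdc and 38 without. The sets hold few cells of 1 library each, and no test was made.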
